A study of Zea mays with 9 samples.

Results

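The comparison Aa vs. N set maize roots supplied with free amino acids against maize roots supplied with inorganic N, over the whole root transcriptome. It comprised 6 of the 9 arrays of the series, 3 of the Aa treatment and 3 of the N treatment, each with 1 probe for each of 39372 transcripts of the B73 gene set, release 5b. Seedlings of the hybrid P0423 were 4 days old when treated, and their roots were collected after 3 days. In N the supplement was ammonium dihydrogen phosphate, which also brought phosphate, and in Aa it was a mixture of free amino acids composed like the protein hydrolysate of the study. Total N was 11.3 mg per litre in both solutions, and the base solution with Fe-EDTA and potassium phosphate was shared by all treatments. The methods of the study list ammonium dihydrogen phosphate in this base solution as well, whereas its results call the solution N-free. Each array held RNA pooled from the roots of 24 seedlings, so that the spread among seedlings was averaged out, and the 3 arrays of a treatment came from 3 independent runs of the experiment. The 3 arrays of the hydrolysate treatment (Bio) entered the fit only for the estimates of the spread and of the slide effects. Through the slide effects they also bear on the fitted difference where spots of N or Aa were left out. The question was which transcripts respond to amino acid N at the same dose of total N.

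Roots take up N as nitrate, ammonium and amino acids through separate families of transporters, and assimilate inorganic N through glutamine synthetase and glutamate synthase. Grasses acquire iron by secreting phytosiderophores, which are made from methionine by way of nicotianamine, leave the root through an efflux transporter and return as a complex with iron through a yellow stripe transporter. The genes of this route are known to be more active in roots short of iron.

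Levels are given as log2 intensity minus the log2 of the 75th percentile over all transcripts of that array, so that a level of 0 is that percentile and a difference of 1 is a fold of 2. The percentile was 680.1 to 962.1 intensity units on the N arrays and 660.5 to 802.6 on the Aa arrays, and no spot was saturated. The scanner software put 29974 to 32309 transcripts well above background on a single N array and 30628 to 31277 on a single Aa array, with 28749 so on all 6 and 5336 on none. Each slide carried 1 N and 1 Aa array at the same positions, so that position on the slide and treatment cannot be told apart. All 5 root markers, rtcs, SCR, wox5B, ZmCASP1 and rth3, were well above background on all 6 arrays. Of 18 leaf markers 7 were so on all 6 arrays and 3 on none, and of 36 seed markers 10 and 14. The summed intensity of the root list, in units of the 75th percentile, was 4.53 to 6.73 on the N arrays and 3.98 to 6.30 on the Aa arrays, that of the leaf list 3.86 to 6.08 and 2.60 to 6.70, and that of the seed list 1.35 to 1.48 and 1.49 to 2.26. Only the seed sums did not overlap between the treatments. In whole roots, fewer cells of a type and less RNA per cell cannot be told apart.

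Most of the transcriptome was close to its N level in Aa. Over 37751 transcripts with a fitted difference the median was -0.01, and the size of the difference was below 1 for all but 6.79% of the 39372 transcripts. No transcript passed the threshold of the methods, an adjusted p of at most 0.01 with a 2-fold difference (0.0% of those tested, limma with Benjamini-Hochberg adjustment). The smallest adjusted p was 0.25. The study itself used a t-test with permutation p values and an adjusted Bonferroni correction, and reported differentially expressed transcripts for this comparison. That test was not run here. At an unadjusted limma p of at most 0.05 there were 3839 transcripts, 1707 higher in Aa (4.52%) and 2132 lower (5.65%), together 10.2%, where 1888 would be past this limit if no transcript differed. Counts of list members at this limit, given below, are to be read against this 10.2%. With a 2-fold difference and a limma p up to 0.01, unadjusted, 382 transcripts were higher in Aa (1.01%) and 382 lower (1.01%). By levels alone, 599 transcripts were at least 2-fold higher in Aa with no overlap of the 6 arrays (1.52%) and 919 were lower (2.33%). This split depends on the scaling: after quantile normalization 693 were higher and 717 lower, and at the p limit of 0.01 429 were higher and 294 lower. The excess of lower transcripts lay among dim probes: of the 7875 dimmest transcripts 61 were higher and 254 lower, and of the 7875 brightest 129 were higher and 130 lower. A group of 16 transcripts was well above background on the 3 Aa arrays and on no N array, and 73 showed the reverse. Whatever the size of the difference, 5754 transcripts (14.6%) did not overlap between the treatments, 2516 higher in Aa and 3238 lower. Absence of overlap was also a limit for naming the 12 largest differences in each direction. In those transcripts it was therefore fixed by the choice, as was the same direction on each slide. A two-sided exact permutation test of 3 arrays against 3 cannot give a p below 0.1, which is its p for any transcript without overlap. The transcripts below are therefore described by their levels, their differences with standard errors and unadjusted limma p, and none was called.

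**Figure D1:**
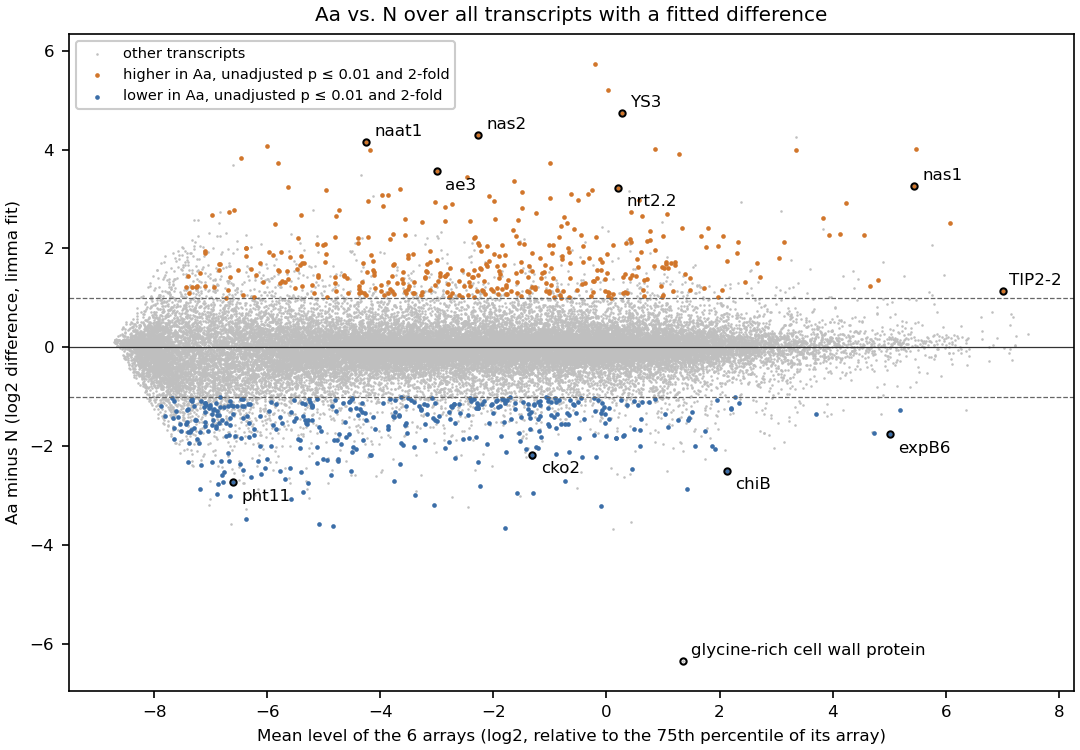
Fitted difference Aa minus N (log2, vertical axis) against the mean level of the 6 arrays (log2, horizontal axis) for the 37751 transcripts tested, with transcripts with an unadjusted limma p up to 0.01 and a 2-fold difference coloured by direction. The cloud is centred near 0, and the labelled points far above it include the phytosiderophore transcripts.

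Among transcripts with a gene name that met the limits for naming, the largest differences belonged to the phytosiderophore route. Every step of it from nicotianamine to the uptake of the iron complex was represented and was higher in Aa. The experiment's own primers for nicotianamine synthase 2 and nicotianamine aminotransferase 1, which the study used for qRT-PCR, identify the 2 transcripts among these for which sequence was at hand. They are printed 5′ to 3′ in lower case with no part marked.
nas2 forward: cgctgtttcaatctctcgtgt
nas2 reverse: ggtgcattgtgcacactgttc
naat1 forward: tcaaatctttctgccaaaggc
naat1 reverse: ctgcgtattcaaggaaaact

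Nicotianamine synthase joins S-adenosylmethionine units into nicotianamine, and 6 transcripts on the array carry this name. The level of nas2 (GRMZM2G030036_T01) was -4.49, -5.72 and -3.05 on N arrays 1 to 3 and -1.04, 0.62 and 0.06 on Aa arrays 1 to 3. All Aa arrays lay above all N arrays, and the fitted difference was 4.30 ± 0.79 (SE), a fold of 19.7, with a limma p of 0.00142. On the N arrays nas2 was well above background in 2 of 3. For nas1 (GRMZM2G385200_T01), among the bright probes, the levels were 3.70, 2.47 and 5.28 in N and 6.78, 7.45 and 6.99 in Aa. The N arrays of nas1 spread more widely (SD 1.41) than the Aa arrays (SD 0.34), and the difference was 3.26 ± 0.59 (p 0.00129). A second transcript annotated as NAS1, GRMZM2G034956_T01, had levels of 3.77, 2.40 and 5.31 in N and 6.73, 7.44 and 7.21 in Aa. These differ from those of nas1 by little on every array. Whether the 2 probes tell the transcripts apart was not tested, as no probe sequences were at hand. The difference of GRMZM2G034956_T01 was 4.00 on the 2 unmarked spots of each treatment and 3.30 with the spots kept that the scanner software marked.

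The remaining synthases followed the same order of arrays. AC233955.1_FGT003, annotated as NAS1, had levels of 1.11, -0.01 and 2.97 in N and 4.84, 5.63 and 5.55 in Aa (difference 3.98 ± 0.61, p 0.000527). GRMZM2G124785_T01, annotated as NAS2, had -0.76, -1.83 and 0.57 in N and 2.35, 4.06 and 3.28 in Aa (3.90 ± 0.74, p 0.00172). The levels of GRMZM2G312481_T01 were 4.47, 3.48 and 5.85 in N and 7.26, 7.95 and 7.47 in Aa (2.52 ± 0.59, p 0.0074). In all 6 synthase transcripts N array 3 was the highest of the N arrays and N array 2 the lowest, so that the difference was widest on slide 2 and narrowest on slide 3.

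Downstream of nicotianamine, naat1 (GRMZM2G096958_T01) encodes the aminotransferase. Its levels were -6.35, -7.94 and -4.73 in N and -2.59, -1.57 and -2.38 in Aa, without overlap. The difference was 4.16 ± 0.71 (a fold of 17.8, p 0.000928), and 1 of the 3 N arrays was not well above background. DMAS1 (listed as AR6, GRMZM2G060952_T01), which reduces the product to deoxymugineic acid, had levels of -0.03, -0.15 and 0.59 in N and 1.84, 3.22 and 2.58 in Aa. This difference was smaller, at 2.41 ± 0.50 (a fold of 5.30, p 0.00269). IDI2 (GRMZM2G139533_T01), of the methionine cycle that feeds the route, was at -1.34, -0.67 and -0.39 in N and at 0.95, 2.09 and 1.39 in Aa. Its difference of 2.12 (p 0.01) rested on 1 unmarked Aa spot.

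The transport steps were also higher in Aa. YS3 (ZmTOM1, GRMZM2G063306_T01), which exports the phytosiderophore, had levels of -2.58, -3.00 and -0.71 in N and 2.08, 3.19 and 2.65 in Aa. Its difference was 4.74 ± 0.78 (a fold of 26.7, p 0.000779), with values of 4.66, 6.19 and 3.37 within slides 1 to 3. This was the largest difference among the transcripts with a name that met the limits for naming. The uptake transporter ys1 (GRMZM2G156599_T01) was at 2.35, 1.53 and 2.09 in N and at 4.54, 5.80 and 4.95 in Aa, again without overlap. The fit gave no value for ys1 because of marked spots, and with these kept its difference was 3.10 ± 0.57 (p 0.00144). Of the 11 members of the list of nicotianamine and phytosiderophore genes 10 had a fitted value, of which 6 were higher by an unadjusted p of at most 0.05 and 0 lower, with a median of 2.26 against -0.01 over all transcripts. The 4 relatives of ys1 on the list were not among the 6: ysl11 differed by 0.11, ysl12 by -0.20 and ysl14A by -0.03, and ysl17 was not well above background on any array.

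**Figure D2:**
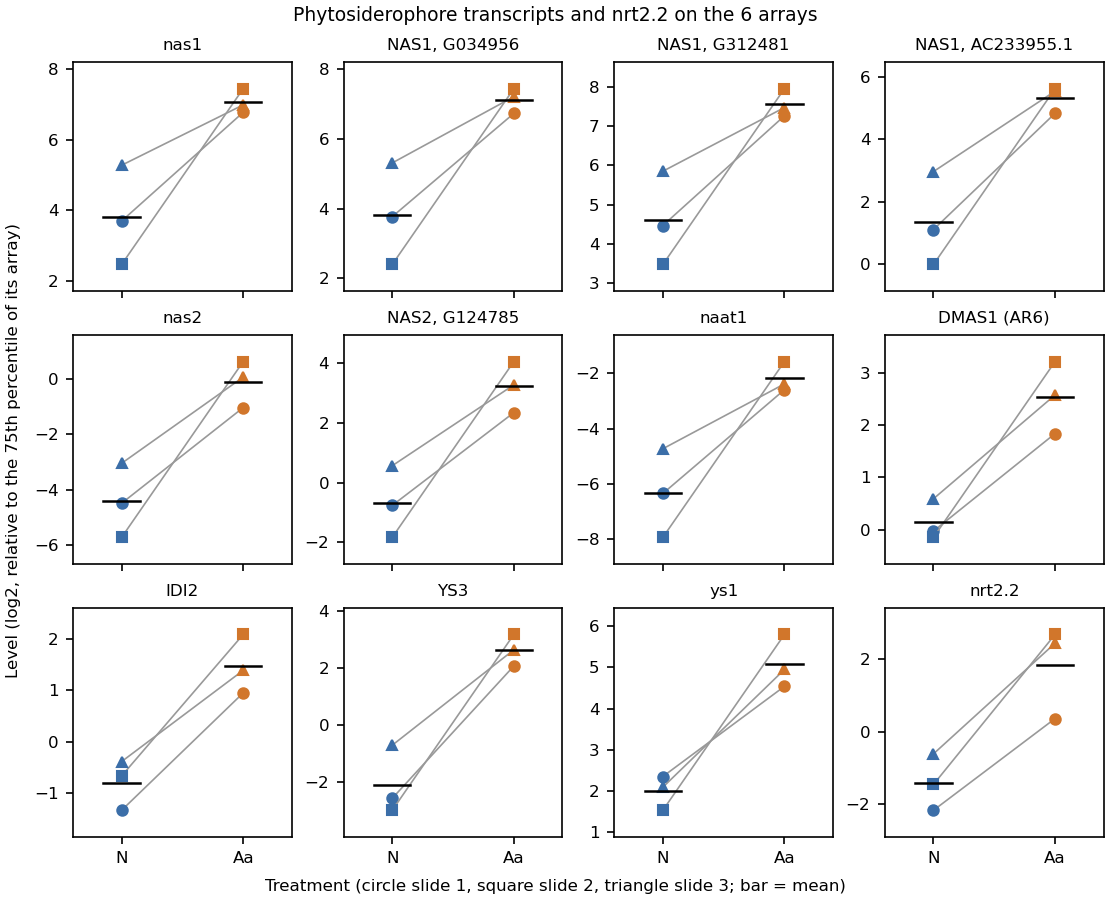
Level (log2, relative to the 75th percentile of the array, vertical axes on separate scales) of 11 phytosiderophore transcripts and nrt2.2 in N and Aa. Points of 1 slide are joined, circles, squares and triangles stand for slides 1, 2 and 3, and bars are means of 3 arrays; in every panel the 3 Aa points lie above the 3 N points.

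Other metal genes showed smaller differences. Nramp1, of a family of divalent metal transporters, had levels of -0.51, -1.37 and -2.06 in N and 0.24, 0.22 and -0.55 in Aa, and its difference of 1.28 ± 0.40 (p 0.0176) was present on each slide although the lowest Aa array fell below the highest N array. ZIP4 was lower by 0.43 (difference -0.43 ± 0.17, p 0.0404). The ferritin fer1, which stores iron, was at 0.12, 0.91 and 0.77 in N and at -0.02, -0.81 and 0.47 in Aa, and its difference of -0.73 (p 0.223) was within the spread of the arrays.

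Among N genes, 1 transporter stood apart. The levels of nrt2.2 (GRMZM2G010251_T01), a high-affinity nitrate transporter, were -2.16, -1.45 and -0.61 in N and 0.36, 2.67 and 2.43 in Aa. No array overlapped, the difference was 3.23 ± 0.61 (a fold of 9.37, p 0.00167), and it was 2.52, 4.12 and 3.04 within the 3 slides. The partner proteins that NRT2 transporters need did not show such a difference: NAR2.1 differed by 0.28 (p 0.527), with 1 unmarked Aa spot, and NAR2.2 was at -5.73, -5.72 and -6.24 in N and at -6.92, -6.94 and -6.26 in Aa, not well above background there (p 0.138). The ammonium transporter GRMZM2G335218_T01 was at -2.67, -5.28 and -3.75 in N and at -5.08, -5.11 and -3.32 in Aa, with overlap (p 0.454). The ferredoxin-dependent glutamate synthase fgs1 was at 2.96, 3.49 and 2.90 in N and at 3.06, 4.23 and 3.59 in Aa, a difference of 0.66 ± 0.20 (p 0.0205) with overlapping arrays. Nrt1.1 (GRMZM2G041631_T01) was also past the limit (p 0.0409), on the lower side, but was not well above background on any array. Of 21 members with a value these 3 were past an unadjusted p of 0.05 (14.3%, against 10.2% of all transcripts), 2 of them higher, and the median of the list was -0.09. Nitrate reductase (NNR1, -0.60, p 0.103), nitrite reductase (NIR, 0.29, p 0.577), the cytosolic glutamine synthetase gln4 (listed as gln1-3, -0.25, p 0.294), asparagine synthetase asn1 (0.10, p 0.521) and glutamate dehydrogenase gdh1 (-0.14, p 0.515) were all well above background on the 6 arrays, and their differences were not resolved from the spread. The peptide transporter GRMZM2G347457_T01 was tabulated by the study for Bio vs. N and not for Aa vs. N. It was at -2.84, -1.73 and -1.26 in N and at -3.68, -3.11 and -2.98 in Aa, a difference of -1.32 ± 0.23 (p 0.000998) without overlap.

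The remaining transcripts with the largest higher levels came from unrelated families. GRMZM2G116360_T01, annotated as a GDSL esterase/lipase, was at -8.36, -7.80 and -7.97 in N, not well above background, and at -3.21, -3.90 and -4.78 in Aa, at least 5.46-fold higher (p 0.00219). This bound sets the mean of the Aa arrays against the lowest signal that was well above background on the N arrays. GRMZM2G373607_T01, annotated as a carboxypeptidase, a protease that trims proteins from their end, was at -8.89, -8.04 and -8.22 in N and at -2.76, -5.05 and -5.87 in Aa, at least 3.61-fold higher (p 0.00232). In both, slide 1 gave the widest difference. The transcript ae3 (GRMZM2G372553_T01) was at -5.47, -4.99 and -3.88 in N and at -1.41, -0.62 and -1.6 in Aa, a difference of 3.57 ± 0.58 (p 0.000747). GRMZM2G089803_T01, annotated as Dwarf plant3, the name of a cytochrome P450 of gibberellin synthesis, was at -4.89, -7.11 and -3.78 in N and at -1.05, -2.38 and -2.73 in Aa. Its difference of 3.21 ± 0.67 (p 0.00263) ranged from 1.05 on slide 3 to 4.73 on slide 2. In all, 406 transcripts met the limits set for naming on the higher side, 160 of them with a name, so that the named transcripts leave out most. A transcript with no name, GRMZM2G118821_T01, chosen after its values were seen, had a larger difference than all those named by these limits, at -3.29, -2.65 and -1.95 in N and at 1.70, 2.75 and 3.56 in Aa (difference 5.19 ± 0.47, p 0.000274). Its within-slide differences of 4.99, 5.39 and 5.51 were closer to each other than those of YS3, nas2 and naat1. GRMZM2G332660_T01, annotated as a putative calcium-dependent protein kinase and likewise chosen after its values were seen, was at -3.56, -3.02 and -1.58 in N and at 2.51, 3.20 and 1.23 in Aa, and its difference of 5.74 ± 1.19 (p 0.00734) rested on 1 unmarked Aa spot.

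On the lower side the named transcripts covered a phosphate transporter, chitinases, a heat shock protein and transcription factors. AC233864.1_FGT009, known by a protein name only (OSJNBa0093O08.8), was at -3.72, -2.70 and -3.47 in N and at -6.86, -5.99 and -7.72 in Aa (difference -3.56 ± 0.47, p 0.000228). GRMZM2G320287_T01 (Os02g0518500 protein) was at -2.48, -1.15 and -0.77 in N and at -4.40, -4.71 and -4.83 in Aa (-3.18 ± 0.63, p 0.00206). GRMZM2G104622_T01, annotated as BAP2, was at -4.61, -5.02 and -5.86 in N and near -8.17 ± 0.051 (SD) in Aa, where it was not well above background, at least 2.19-fold lower (p 2.78e-05). None of these 3 overlapped between the treatments, and in each the direction was the same on every slide, both of which the limits for naming required.

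GRMZM2G446454_T01, annotated as a cytochrome P450-like protein, was at -1.49, -1.88 and -2.32 in N and at -3.33, -5.77 and -5.53 in Aa (difference -2.98 ± 0.64, p 0.00323). AC214817.3_FGT007 (Os05g0524500 protein) was at -3.25, -3.56 and -3.01 in N and at -5.11, -7.01 and -5.21 in Aa (-2.50 ± 0.55, p 0.00361). Hm2 (GRMZM2G131243_T01), a reductase that inactivates the toxin of a fungal leaf pathogen of maize, was at -4.31, -4.47 and -4.30 in N and at -6.03, -7.92 and -7.13 in Aa. In Aa no array was well above background, and it was at least 3.53-fold lower there (p 0.00172). Of the lower transcripts 375 met the limits for naming, 149 of them with a name. GRMZM2G361388_T01, without a name and chosen after its values were seen, was at 0.61, 0.30 and -0.85 in N and at -2.23, -4.42 and -4.23 in Aa, a difference of -3.65 ± 0.51 (p 0.000327).

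**Figure D3:**
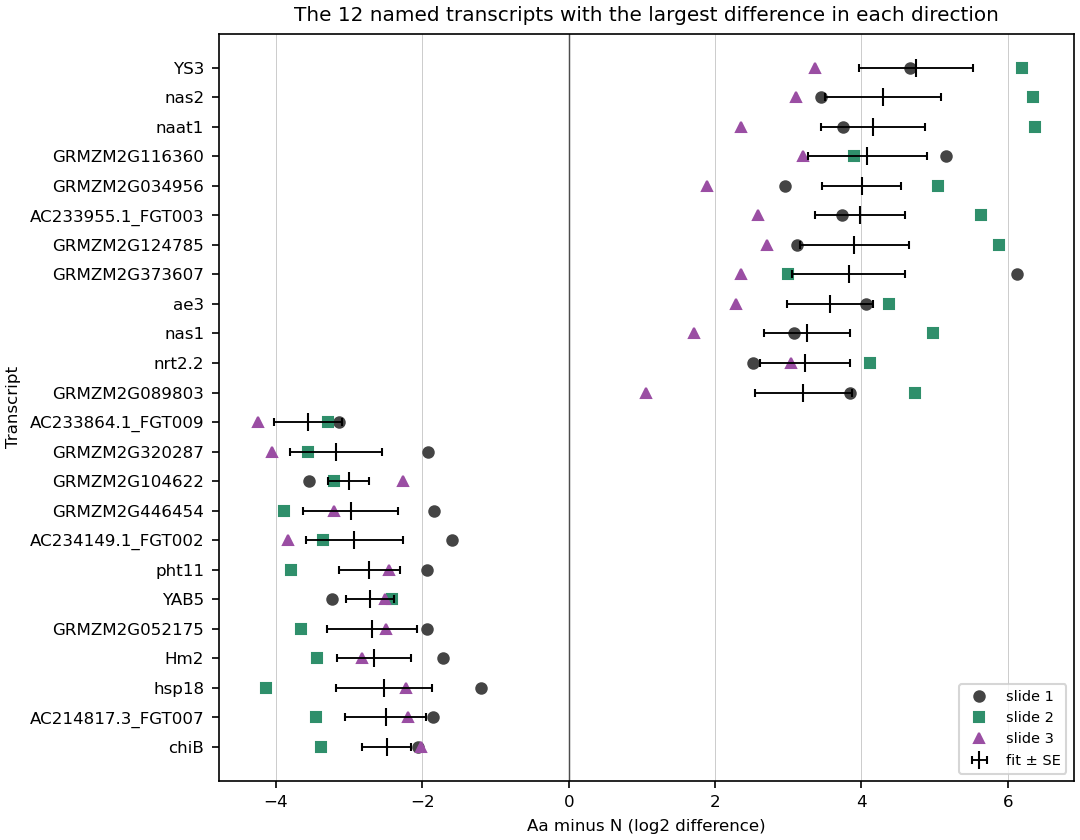
Difference Aa minus N (log2, horizontal axis) within slides 1 to 3 (points) and from the fit (tick with its SE) for the 12 named transcripts with the largest difference in each direction. All points of the upper 12 transcripts lie above 0 and all points of the lower 12 below 0, which the limit of no overlap set for naming fixed in advance. Slide 2 gives the widest difference for most phytosiderophore transcripts.

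The slides can be read as 3 separate comparisons. At least a 2-fold higher level on each of the 3 slides was found for 243 transcripts (0.617% of all) and a 2-fold lower level on each for 258 (0.655%). Across 28749 transcripts that were well above background, and which are not independent replicates, the differences of slides 2 and 3 correlated with an r of 0.598, those of slides 1 and 2 with 0.454 and those of slides 1 and 3 with 0.22. The levels of single arrays correlated with 0.976 to 0.977 among N arrays, 0.971 to 0.979 among Aa arrays and 0.95 to 0.98 between the treatments. Some pairs across the treatments were thus as alike as arrays of 1 treatment. After normexp background correction the 24 transcripts of the plot of within-slide differences had the same direction, but for 12 of them the size of the difference was below 1.

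Phosphate transporters were among the lower transcripts. The level of pht11 (GRMZM2G139639_T01), annotated as an inorganic phosphate transporter, was -5.93, -4.33 and -5.47 in N and -7.86, -8.12 and -7.92 in Aa. No Aa array was well above background for it, and it was at least 2.07-fold lower there (p 0.000494). For pht6 (GRMZM5G881088_T01) the levels were -0.46, -1.75 and -1.05 in N and -1.90, -3.08 and -5.73 in Aa, a difference of -2.48 ± 0.98 (p 0.0427) in which Aa array 3 was far below the others. Of 11 members of the list with a value these 2 were lower by an unadjusted p of at most 0.05 and 0 were higher, with a median of -0.25. The difference of pht3 was -2.09 (p 0.0751) and that of pht7 -1.18 (p 0.0657). The bright pht2 differed by 0.45 (p 0.291) and pht9, without a fitted value, was at 3.18, 5.24 and 3.75 in N and at 4.10, 6.43 and 5.94 in Aa with overlap. Because the N supplement was a phosphate salt, the supply of phosphate and the form of N cannot be told apart here.

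Potassium transporters and aquaporins were mostly near their N level. HAK21, a potassium transporter, was higher by 1.71 ± 0.53 (p 0.0165), with levels of -3.90, -4.24 and -2.88 in N and -3.03, -2.48 and -0.38 in Aa. HAK5 (-0.73 ± 0.26, p 0.0311) and HAK8 (-0.60 ± 0.18, p 0.0187) were lower, and these 3 were 11.1% of the 27 potassium transporters with a value, near the 10.2% of all transcripts, with a median of -0.02. Of the aquaporins, the bright tonoplast channel TIP2-2 was at 6.30, 6.30 and 6.75 in N and at 7.25, 7.80 and 7.70 in Aa. It did not overlap and differed by 1.13 ± 0.20 (p 0.00182). TIP3-1 was at -0.47, 0.20 and -0.34 in N and at -1.12, -2.26 and -2.89 in Aa (-1.89 ± 0.53, p 0.0114), and TIP4-4 (-1.35 ± 0.33, p 0.00621) and NIP2-2 (p 0.0119), well above background on 1 N array only, were lower too. The other 20 of 24 aquaporins with a value were not past an unadjusted p of 0.05, among them the bright plasma membrane channels PIP2-6 (-0.25, p 0.176), pip2-5 (-0.01, p 0.943) and PIP1-1 (0.18, p 0.652), and the median of the list was 0.04. TIP1-2, without a fitted value because of marked spots, was at 4.11, 4.22 and 3.64 in N and at 2.63, 2.02 and 1.90 in Aa. The sucrose transporter sut1 was lower by 0.62 (difference -0.62 ± 0.16, p 0.0114), without overlap.

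In the cell wall group, 2 bright beta-expansins, which loosen walls during growth, were lower in Aa. expB6 (GRMZM2G176595_T01) was at 5.74, 6.28 and 5.64 in N and at 4.27, 3.80 and 4.32 in Aa, a difference of -1.75 ± 0.33 (p 0.00162). expB7 (GRMZM2G342246_T01) was at 5.69, 6.0 and 5.79 in N and at 4.59, 4.14 and 4.98 in Aa (-1.26 ± 0.30, p 0.00758). In both, all N arrays were above all Aa arrays. expB4 was higher by 1.12 ± 0.35 (p 0.0179) with overlap, and of 16 expansins 1 was higher and 2 lower at this limit, with a median of -0.09. expB3, with 1 unmarked N spot, was at 3.78, 4.02 and 3.03 in N and at 1.79, 1.94 and 2.18 in Aa (p 0.0609). The endoglucanase Cel20 was at 1.72, 1.96 and 0.85 in N and at 0.18, -0.66 and -1.02 in Aa (-2.09 ± 0.69, p 0.0267), and Cel21 was lower by 0.59 (difference -0.59, p 0.0457).

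The cellulose synthase CesA-8 was at -1.53, -1.44 and -1.04 in N and at -0.55, -0.37 and -0.46 in Aa (0.88 ± 0.19, p 0.00368). It was the only 1 of 13 cellulose synthases with a value past an unadjusted p of 0.05 (7.69%, against 10.2% of all transcripts), and the median of the list was 0.20. Laccases polymerise lignin, and Laccase-17 (GRMZM2G072808_T01) was at -3.62, -3.70 and -2.24 in N and at -1.66, -1.34 and -0.73 in Aa (1.94 ± 0.42, p 0.00308), with Laccase-13 (GRMZM5G814718_T01) higher by 0.83 ± 0.26 (p 0.019). These were the 2 of 21 lignin genes past the limit (9.52%, against 10.2% of all transcripts), both higher, with a median of 0.11 (-0.15 over members well above background on all 6 arrays). Other transcripts with the names Laccase-13 and Laccase-17 differed by -0.76 (p 0.32) and -0.37 (p 0.596). The peroxidase PER66 was at -4.40, -5.54 and -4.16 in N and at -3.10, -2.28 and -1.86 in Aa (2.28 ± 0.42, p 0.0015), and PER70 was higher by 0.73 ± 0.18 (p 0.00609), both without overlap. These were the 2 of 5 peroxidases with a value past an unadjusted p of 0.05 (40.0%, against 10.2% of all transcripts). The study reported further peroxidases for Aa vs. N, both higher and lower ones, most of which this list does not hold. The polygalacturonase PG14 differed by 0.18 (p 0.347). ZmCASP1, of the Casparian strip of the endodermis, was at -3.52, -3.76 and -3.84 in N and at -2.96, -2.23 and -2.47 in Aa (1.16 ± 0.28, p 0.00586).

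A glycine-rich cell wall structural protein (GRMZM2G024996_T01) showed the widest gap on the lower side. Its levels were 4.83, 4.43 and 3.76 in N and 1.09, -3.00 and -3.01 in Aa, so that Aa array 1 stood between the N arrays and the other Aa arrays. With marked spots kept the difference was -5.98 ± 1.30 (p 0.00334). The fit without them gave -6.34 ± 1.64 (p 0.0268) from 1 unmarked N spot, and over the alternatives the value ran from -7.44 to -3.04.

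Defence transcripts in the list of chitinases, PR proteins and inhibitors were lower where they differed. Endochitinases cut the chitin of fungal walls, and chiB (GRMZM2G005633_T01) was at 3.5, 4.12 and 2.52 in N and at 1.43, 0.74 and 0.50 in Aa, a difference of -2.49 ± 0.34 (a fold of 5.61, p 0.000618). chiA (GRMZM2G051943_T01) was at 3.31, 3.29 and 2.13 in N and at 1.32, 1.24 and 1.33 in Aa (-2.07 ± 0.53, p 0.0156). Another transcript annotated as endochitinase A, GRMZM2G052175_T01, was at -0.01, 1.63 and 0.22 in N and at -1.94, -2.03 and -2.27 in Aa (-2.69 ± 0.61, p 0.00428). Every N array was above every Aa array for these 3 chitinases. The ribonuclease-like PR10 was at 2.76, 3.28 and 2.53 in N and at 1.86, 1.0 and 1.70 in Aa (-1.33 ± 0.39, p 0.0136), and the wound-induced inhibitor wip1 was at 3.66, 4.04 and 3.27 in N and at 2.46, 3.25 and 2.78 in Aa (-0.83 ± 0.29, p 0.0271). Of 12 members, 4 were lower and 0 higher at an unadjusted p of at most 0.05, with a median of -0.51. The brightest chitinase, chiI (-0.03, p 0.953), the proteinase inhibitor MPI (-0.19, p 0.563) and the ribosome-inactivating proteins RIP1 (0.21, p 0.414) and rip2 (0.63, p 0.144) were not resolved from the spread.

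Benzoxazinoids, the indole-derived defence compounds of maize, are made by enzymes of which 3 cytochromes P450 were lower in Aa. bx2 was at 2.2, 2.68 and 3.71 in N and at 0.30, -0.81 and 2.36 in Aa (-2.24 ± 0.87, p 0.0405), with overlap because Aa array 3 lay above N array 1. BX5 was at 1.33, 1.13 and 2.29 in N and at 0.07, -1.83 and 0.57 in Aa (-1.98 ± 0.46, p 0.00658), and BX4 at -1.26, -0.58 and -0.04 in N and at -1.94, -3.32 and -1.69 in Aa (-1.69 ± 0.56, p 0.0224). Aa array 2 was the lowest of the 6 arrays for all 3 of these. Of 9 members with a value 3 were lower and 0 higher, with a median of -0.68. BX3, on 1 unmarked spot per treatment, was at 5.17, 5.33 and 6.09 in N and at 4.72, 3.61 and 4.85 in Aa, also without overlap. The first enzyme of the route, bx1, was not well above background on any array.

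**Figure D4:**
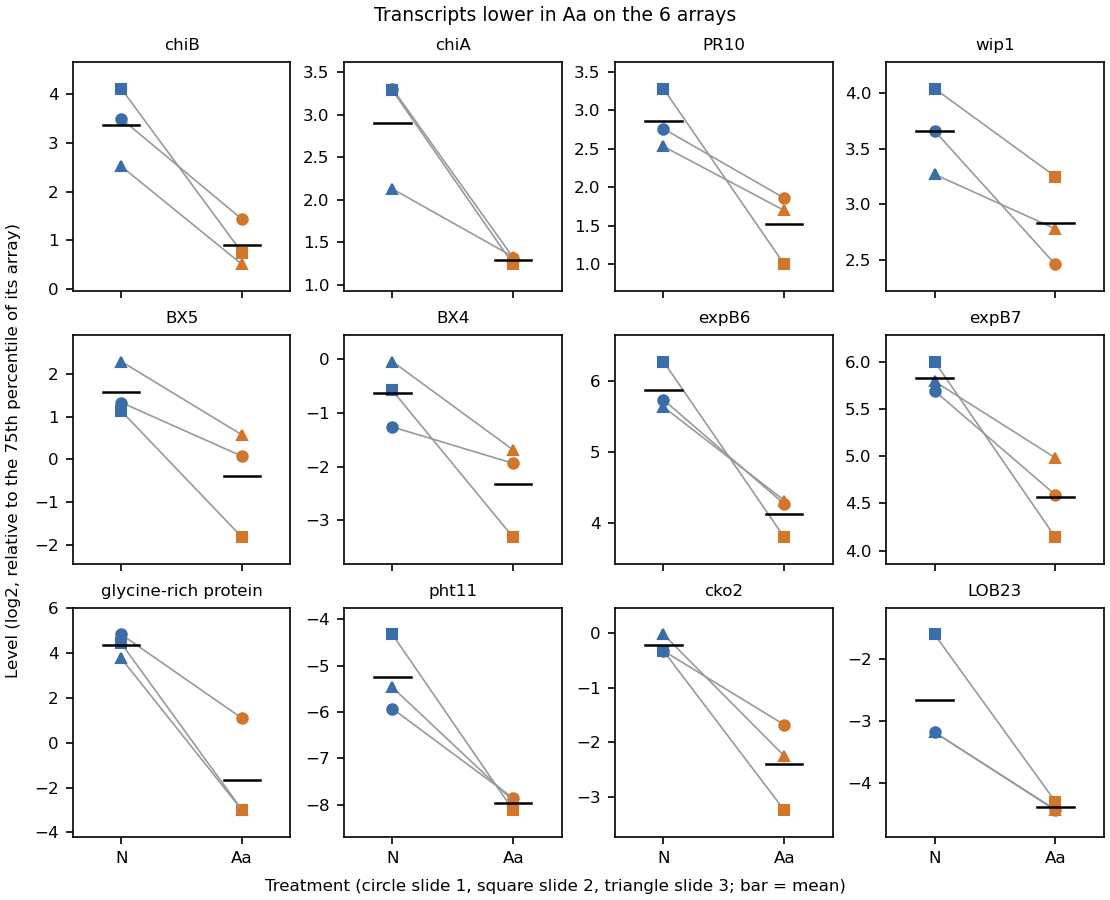
Level (log2, relative to the 75th percentile of the array, vertical axes on separate scales) of 12 transcripts in N and Aa that were lower in Aa. Points of 1 slide are joined, circles, squares and triangles stand for slides 1, 2 and 3, and bars are means of 3 arrays; in every panel the 3 Aa points lie below the 3 N points, and the glycine-rich protein shows the widest gap.

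Terpene synthases differed in both directions. EDS, an eudesmanediol synthase of root sesquiterpenes, was at 0.36, 0.07 and 0.14 in N and at 2.05, 2.43 and 1.28 in Aa, a difference of 1.73 ± 0.29 (p 0.00336) without overlap. an1, of gibberellin synthesis, was higher by 1.02 ± 0.41 (p 0.0455), with no difference on slide 3 (-0.05). The sesquiterpene synthases TPS4 (GRMZM2G117319_T01, p 0.0201, well above background on 1 N array) and TPS5 (GRMZM2G074309_T01, -2.0 ± 0.60, p 0.0148) and the P450 CYP92C6 (-1.38 ± 0.55, p 0.0445) were lower. These were 2 higher and 3 lower of 14 members, with a median of -0.29.

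Of the heat shock list 3 small heat shock proteins were past the limit. hsp18 (GRMZM2G149647_T01) was at -4.58, -3.72 and -4.11 in N and at -5.78, -7.87 and -6.33 in Aa (-2.52 ± 0.66, p 0.00799). hsp18c was at -4.70, -3.05 and -1.96 in N and at -6.35, -6.91 and -4.18 in Aa (-2.58 ± 0.82, p 0.0192), and hsp18a (listed as HSP18, GRMZM2G404249_T01) at -2.78, -1.21 and -1.02 in N and at -4.03, -3.55 and -2.48 in Aa (-1.68 ± 0.61, p 0.032). For the last 2, N array 1 lay among the Aa arrays. In N, array 1 was also the lowest for hsp101, at -2.02 against 1.22 and 0.82, and in Aa hsp101 was at -1.58, -2.07 and -0.69 (p 0.135). Of 15 members these 3 were lower and 0 higher, with a median of -0.33, and HSP90-1 (-0.33, p 0.417) and HSP90-2 (-0.30, p 0.286) were within the spread.

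Glutathione transferases, which conjugate reactive compounds, had 4 higher and 2 lower members of 28 with a value, and a median of -0.07. gst9 was at -1.77, -2.54 and -0.73 in N and at 0.80, 0.27 and -0.07 in Aa (2.01 ± 0.48, p 0.00515). gst11 was at -3.15, -3.75 and -1.95 in N and at -1.05, -1.26 and -1.29 in Aa (1.75 ± 0.40, p 0.00422). gst12 (1.23 ± 0.28, p 0.00405) and gst14 (1.14, p 0.00361) were higher too, all 4 without overlap. gst24 was at -1.47, 0.57 and 0.12 in N and at -2.0, -1.85 and -1.59 in Aa (-1.55 ± 0.38, p 0.0091), and gst8 was lower with overlap (-1.05, p 0.0495). None of the 13 antioxidant enzymes with a value was past an unadjusted p of 0.05, and the brightest, the superoxide dismutase sod4, differed by -0.51 (p 0.113). The hemoglobin GLB1 (GRMZM2G067402_T01), chosen after its values were seen, was bright and without overlap, at 5.70, 5.77 and 5.08 in N and at 3.68, 4.19 and 4.67 in Aa, yet its difference of -1.34 ± 0.66 had a p of 0.0864.

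Among hormone genes, the auxin list, the largest of them, had the most members at the limit, with 11 lower and 2 higher of 55 with a value and a median of -0.10. This share of 23.6% was close to the 23.7% of the jasmonate list, against 10.2% of all transcripts. The auxin efflux carriers PIN8 and PIN5a were lower without overlap. PIN8 was at -2.10, -2.37 and -2.97 in N and at -3.73, -4.05 and -4.53 in Aa (-1.62 ± 0.48, p 0.0142), and PIN5a at -3.33, -4.06 and -3.43 in N and at -4.14, -5.70 and -4.93 in Aa (-1.31 ± 0.23, p 0.000992). PIN10a was lower by 0.84 (difference -0.84, p 0.00999). Among auxin response factors, which bind auxin-responsive promoters, ARF18 (at least 1.35-fold, p 0.0322, well above background on 2 N arrays), ARF4 (-1.06, p 0.00514) and ARF23 (-0.98, p 0.00491) were lower. AUX14 (0.59, p 0.0316) and AUX15 (0.65, p 0.0271) were the 2 higher members. AUX5 had a fitted difference of -1.68 ± 0.24 (p 0.000725), but 1 marked Aa spot at 0.93 stood far above the others at -7.57 and -7.16, and with that spot kept the sign turned.

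Cytokinin oxidase 2 (cko2, GRMZM2G050997_T01), which breaks cytokinin down, was at -0.33, -0.33 and -0.03 in N and at -1.68, -3.24 and -2.25 in Aa. The difference was -2.16 ± 0.36 (a fold of 4.48, p 0.000842) without overlap. Another oxidase, CKX8, was higher by 0.74 ± 0.20 (p 0.00982) with overlapping arrays. The type-A response regulator RR7, of the cytokinin relay, was at -2.42, -3.53 and -3.34 in N and at -2.07, -1.68 and -1.6 in Aa (1.31 ± 0.32, p 0.00542). These were 2 higher and 1 lower of 25 cytokinin genes with a value, and the median was 0.06.

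Jasmonate genes, among them lipoxygenases (lox), oxophytodienoate reductases (opr) and the TIFY repressors, had 4 higher and 5 lower of 38 with a value, and a median of 0.01. opr3 was higher by 0.92 (p 0.00253) and lox1, at 4.60, 4.40 and 4.78 in N and at 5.15, 5.42 and 5.93 in Aa, by 0.91 (p 0.0222), both without overlap, and lox4 was higher by 0.69 (p 0.0274) with overlap. lox7 (p 0.0256, well above background on 1 N array), opr2 (-0.91, p 0.05) and lox3 (-0.63, p 0.0431) were lower without overlap, opr1 (-1.30 ± 0.24, p 0.00138) and TIFY2 (-1.83 ± 0.39, p 0.00477) with it, and with marked spots kept TIFY2 differed by -1.05 ± 0.59 (p 0.127). TIFY10 is counted as higher from 1 unmarked N spot, whereas its levels, 0.18, 2.75 and 2.54 in N and 1.6, 1.6 and 0.70 in Aa, overlapped and gave -0.53 (p 0.504) with every spot kept. For abscisic acid, the 4 of 42 members past the limit (9.52%, against 10.2% of all transcripts) were lower: the phosphatases PP2C29 (GRMZM2G053722_T01, at least 2.14-fold, p 0.00582), a second PP2C29 (GRMZM2G423116_T01, at least 1.85-fold, p 0.0141, well above background on 2 N arrays) and PP2C11 (-1.02 ± 0.41, p 0.0442), which hold the signal in check, and the receptor gene PYL3 (-0.89 ± 0.30, p 0.0295). None of the 5 members of the gibberellin list and the 5 of the ethylene list with a value was past it, the gibberellin list not holding an1 or the transcript annotated as Dwarf plant3 given above. These short lists do not speak for all genes of the 2 hormones. The study reported for Aa vs. N further genes of gibberellin activation, inactivation and response and putative gibberellin receptors that are outside the gibberellin list. It also reported an aminocyclopropane carboxylate oxidase that is outside the ethylene list. Dwarf1 was at -0.30 (p 0.374) and ERS14 at -0.04 (p 0.79).

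Among the lower transcription factors were members of the YABBY and LOB families. YAB5 (GRMZM2G116646_T01) was at -5.21, -5.43 and -5.62 in N and at -8.44, -7.84 and -8.13 in Aa, not well above background there and at least 1.83-fold lower (p 0.000139). AC234149.1_FGT002, annotated as a LOB factor, was at -5.96, -3.20 and -2.53 in N and at -7.56, -6.56 and -6.36 in Aa, at least 5.27-fold lower (p 0.00406). The LOB factor rtcs (listed as LOB23, GRMZM2G092542_T01), which maize needs to form crown and seminal roots, was at -3.18, -1.6 and -3.18 in N and at -4.43, -4.30 and -4.44 in Aa (-1.74 ± 0.39, p 0.00411). LOB19 was lower by 0.61 (difference -0.61 ± 0.17, p 0.0102), and these were the 2 of 10 listed LOB genes past the limit. All 4 of these were without overlap.

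WRKY factors, many of which act in defence, had 3 lower and 0 higher of 18 with a value: WRKY95 (-1.05 ± 0.27, p 0.00784), WRKY30 (-1.04 ± 0.36, p 0.0267) and WRKY42 (-1.01 ± 0.32, p 0.0179), each without overlap. The median of the family was -0.05. EREB27 was at -0.34, 0.19 and 0.04 in N and at -0.90, -1.06 and -2.67 in Aa (-1.50 ± 0.47, p 0.0172), and with EREB93 (-0.85, p 0.0473), EREB197 (-0.56, p 0.0469) and dbf2 (-0.46, p 0.0455) it made 4 lower and 0 higher of 34 (11.8%, against 10.2% of all transcripts). Of 28 bZIP genes 4 were lower and 1 higher. bZIP45 (-2.06 ± 0.33, p 0.00659, 1 unmarked N spot) was at 3.15, 2.93 and 2.21 in N and at 1.0, 1.23 and 1.04 in Aa. bZIP108 (-0.88, p 0.01), bZIP68 (-0.81, p 0.0358) and bZIP92 (-0.53, p 0.0494) were lower and bZip37 (0.60, p 0.042) was higher.

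NAC factors were counted 6 times on the higher and 3 times on the lower side of 23 with a value, and the median was -0.14. CUC2 (GRMZM2G393433_T01), of a group known for organ boundaries, was at -6.62, -6.32 and -5.79 in N, not well above background, and at -5.09, -4.35 and -4.17 in Aa, at least 2.96-fold higher (p 0.000286). NAC76 (1.52 ± 0.40, p 0.00776) and NAC22 (1.34 ± 0.43, p 0.0195) were higher without overlap. NAC95 (-0.94, p 0.00877) and nac5 (-0.56, p 0.0217) were lower without overlap. NAC12 was lower too (-1.0 ± 0.28, p 0.0146), but its arrays overlapped and with marked spots kept its difference was -0.47 (p 0.295). Among 40 bHLH genes 6 were higher and 4 lower, with bHLH114 (1.18 ± 0.28, p 0.00464) and bHLH161 (1.03 ± 0.22, p 0.00281) higher without overlap, and bHLH27 (p 0.0174, well above background on 1 N array), bHLH104 (-0.89, p 0.018), bHLH36 (-0.77, p 0.0135) and bHLH11 (p 0.0464, not well above background on any array) lower. The bHLH116 value of 4.00 came from 1 unmarked N spot, and with every spot kept its difference was 0.81 (p 0.548). MYB genes, of which 8.06% were past the limit against 10.2% of all transcripts, had 2 higher, MYB30 (1.37 ± 0.39, p 0.0121) and MYB63 (at least 1.95-fold, p 0.044, well above background on 2 Aa arrays), and 3 lower of 62, Myb36 (-1.97 ± 0.52, p 0.00862), MYB100 (-1.88 ± 0.37, p 0.002) and MYB-IF35 (-1.15 ± 0.40, p 0.0281).

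Of 28 ribosomal protein genes with a value, 0 were past an unadjusted p of 0.05 in either direction, with a median of 0.06, and arpp3 was at 6.80, 6.78 and 6.73 in N and at 6.69, 6.66 and 6.97 in Aa. Likewise 0 of 9 histones (median 0.11, histone2b1 at -0.26, p 0.302) and 0 of 8 tubulins (median -0.01) were past it. The bright tub6 had no fitted value and was at 2.92, 2.53 and 3.33 in N and at 3.39, 3.49 and 3.84 in Aa, without overlap, a difference of 0.65 ± 0.24 (p 0.0335) with marked spots kept. In the cell cycle list 2 of 15 were higher (13.3%, against 10.2% of all transcripts). These were cyclin9 by 0.52 ± 0.16 (p 0.0169) and cyclin8 by 0.41 ± 0.13 (p 0.0222), both with overlap of the arrays but in the same direction on each slide. The brightest probe with a name, the 14-3-3 protein GF14-6, was at 7.24, 7.53 and 7.18 in N and at 7.44, 7.75 and 7.61 in Aa (0.28 ± 0.15, p 0.105). The other 4 of the 5 brightest, GRMZM2G099867_T01, GRMZM2G080466_T01, GRMZM2G002825_T01 and GRMZM2G036629_T01, differed by 0.04 to 0.61 with p of 0.264 to 0.833.

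Markers of other organs were checked transcript by transcript. The only 1 of 18 leaf markers past an unadjusted p of 0.05 was a small Rubisco subunit (rbcS, GRMZM2G098520_T01, p 0.00213), which was lower in Aa and was not well above background on any array. Of the 36 seed markers, the storage protein gene glb3 (GRMZM2G410134_T01) was at -2.12, -1.83 and -1.83 in N and at -0.82, 0.33 and -0.30 in Aa, a difference of 1.67 ± 0.39 (p 0.0046) without overlap. The oleosin ole17 was higher (p 0.0443) and was well above background on 1 Aa array and on no N array, and the zein z1A2_3, well above background on 1 N array, was lower (p 0.0368). The part of seed tissue in the differences described above was not tested.

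**Figure D5:**
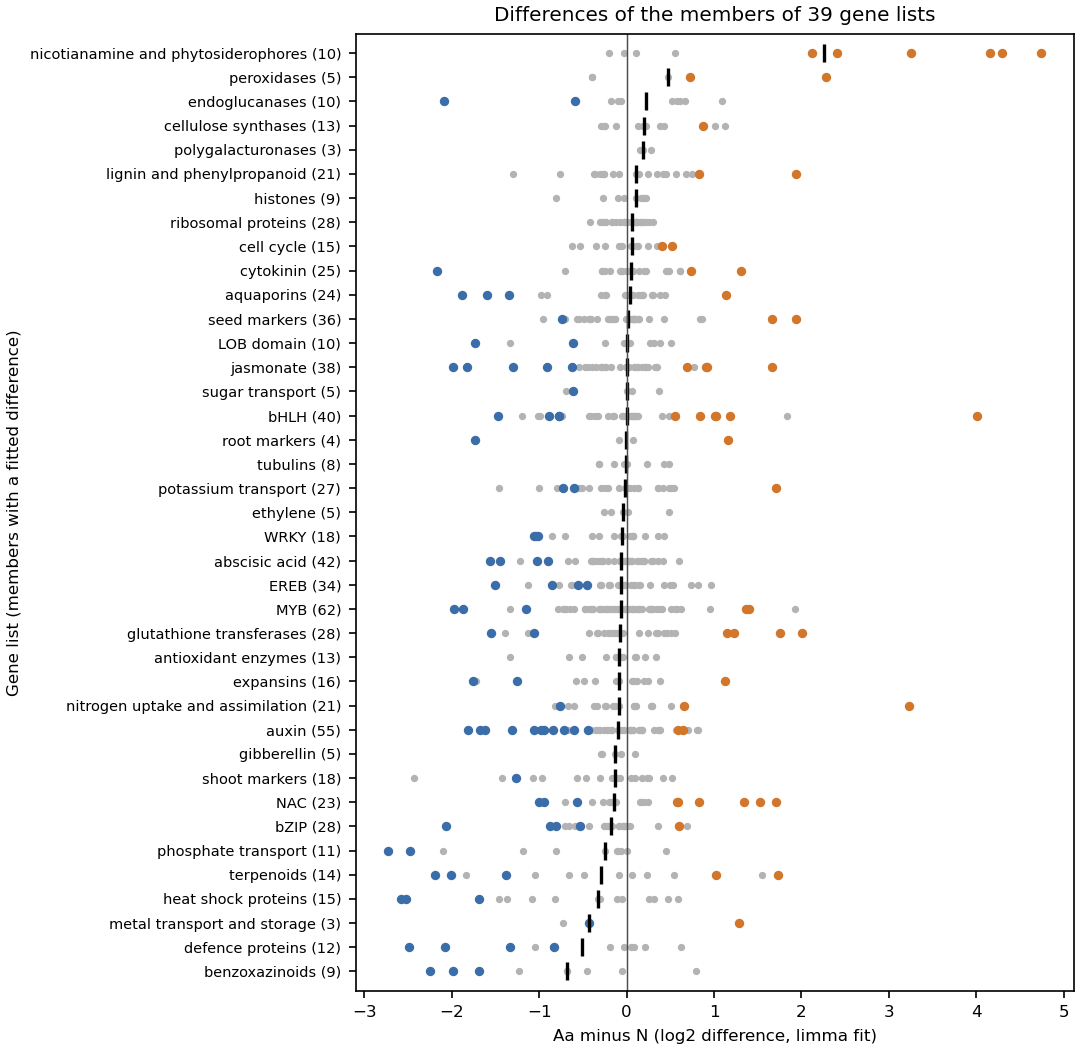
Fitted differences Aa minus N (log2, horizontal axis) of the members of 39 gene lists, 1 row per list with the number of members with a value in brackets, ordered by the median (black bar). Coloured points are members at an unadjusted limma p of at most 0.05 and grey points the others. The nicotianamine and phytosiderophore list has the highest median, 2.26, and the benzoxazinoid list the lowest, -0.68.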

How the data were processed

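Total RNA of maize roots was hybridized on custom one-colour (Cy3) arrays, and the authors deposited spot intensities from Agilent Feature Extraction 10.5.1.1, background-subtracted and detrended but not scaled between arrays, per the file headers. The authors also deposited an intensity table scaled by 1 factor per array, used as an alternative.

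Intensities were converted to log2 and the 75th percentile of the same array was subtracted. Spots with a non-uniformity or outlier mark from the scanner software (4.17 to 8.19% per array) were missing in the fit but kept in the levels. Tests used limma 3.58.1 in R 4.3.3 (lmFit and eBayes without trend) on all 9 arrays with 3 treatments and the slide as a block. Adjusted p values are Benjamini-Hochberg over 37751 transcripts. Arrays of 1 slide shared the replicate number and scan, so that a block of either is the same fit. Their deviations from the treatment means correlated with 0.271, 0.265 and 0.391, against -0.241 to -0.028 for other pairs, so that the numbers pair the arrays. The number of arrays limits the precision. The step was tested on simulated data.

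Named are the 12 transcripts per direction with the largest difference at an unadjusted p of at most 0.01, with at least 2 unmarked spots per treatment, no overlap, the brighter treatment well above background on 3 arrays, and a name. In each gene list up to 4 members at p of at most 0.05 with the largest difference are named, or the brightest member, with further members where 5 or fewer are counted, and the 5 brightest transcripts. The 39 lists were built from short gene names and cleared of members whose name stands for another protein. The lists, the members and the tests were chosen with earlier results of these data known, and the list counts are descriptions. Names came from the table of assembly Zm-B73-REFERENCE-NAM-5.0, where 18208 transcripts matched 1 gene, 519 several and 20645 none and 2522 had a short name, and from the annotation of the study for 1018. No coordinates were taken from it.
Alternatives were quantile normalization, normexp with an offset of 50, the percentile over probes above background, the authors' scaled values, dim probes left out, marked spots kept, no block, a random block, 6 arrays only, eBayes with trend, a t-test, other limits and each array left out. The t-test took its p from the t distribution, with Benjamini-Hochberg adjustment and marked spots missing. The permutation p values and the Bonferroni correction of the methods were not run.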

Additional observations from a re-analysis of the deposited data

How the results depend on the processing

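The count of transcripts past the methods' threshold was 0 under every alternative run with limma. It was also 0 under a t-test with Benjamini-Hochberg adjustment, which is not the permutation test with Bonferroni correction that the study used. Without adjustment 3839 transcripts had a limma p up to 0.05, from 2072 to 4436 over the alternatives, and 2885 a t-test p up to 0.05. The smallest adjusted p was 0.035 after normexp and 0.03 by the t-test. The 764 transcripts that were 2-fold apart with an unadjusted p up to 0.01 were 210 after normexp (133 higher, 77 lower) and 225 by the t-test, and 602 with no replicate block. Without 1 array they numbered 393 (without Aa replicate 2) to 964 (without N replicate 1), with 411 without N replicate 2. The 1518 transcripts at least 2-fold apart without overlap were 367 after normexp (191 higher, 176 lower, or 52.0% higher against 39.5%), and without 1 array 1590 to 2838, with 2349 without N replicate 1, 2490 without N replicate 3 and 2838 without Aa replicate 1, where fewer arrays have to be separated. The cause of the normexp counts was not tested. All 24 transcripts with the largest named differences kept their direction under all alternatives, but not their size. The limit of no overlap set for naming largely fixed this direction in advance, so that it is not a separate check. After normexp, YS3 was at 3.51 and chiB at -2.09, whereas nas2 was at 1.95, naat1 at 1.02, GRMZM2G116360_T01 at 0.43, pht11 at -0.21 and YAB5 at -0.13. Past an unadjusted p of 0.01, 13 were lost by the t-test, 6 after normexp, 2 with only the 6 arrays, 1 with no replicate block and 3 to 9 without 1 array. With marked spots kept the difference of AUX5 (GRMZM2G031615_T01) reversed to 0.903, that of TIFY10 (GRMZM2G145458_T01) to -0.525 and that of the ammonium transporter GRMZM2G335218_T01 to -0.605, and HAK8 (p 0.0509), sut1 (p 0.12), gst24 (p 0.0751) and PYL3 (p 0.0983) were no longer past 0.05. Transcripts not well above background have only a bound, and differences near background are not resolved.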
